A study of Mus musculus with 44 samples.

Results

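The comparison described here set CD4+ T cells from miR-150 knock-in (KI) mice against the same cells from wild-type (WT) mice after 3 days in Th0 culture. Its members were the libraries titled Th0 KI and Th0 WT: 4 KI and 5 WT libraries, 9 of the 44 RNA-seq libraries of the series. Both groups were of strain C57BL/6NTac. Naive cells were isolated from the spleen by sorting and plated at 150000 per well on coated anti-CD3 with soluble anti-CD28 in complete RPMI. Th0 wells, the unpolarised condition, received no polarising cytokine, whereas Th1 wells also had IL-12 and anti-IL-4, and Treg wells had TGF-b1 and anti-IFN-g. The other 35 libraries were KI and WT cells in Th1 and Treg culture and miR-150 knockout (KO) cells in all 3 cultures. How the knock-in allele was built, the promoter that drives it, and the age and sex of the mice were not given in the sources used here. Nothing stated whether each library came from a separate mouse. The p-values rest, for each gene, on 1 estimate of spread over all 44 libraries. They measure only the spread between libraries, which may be partly technical. The fit took libraries as independent, although same-numbered libraries of a genotype deviated together across cultures. Libraries are named by group and by the number in their titles (KI 1, 3, 4 and 5, and WT 1 to 5).

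A microRNA is a short RNA that guides Argonaute proteins to messenger RNAs, mainly through pairing of its seed, the bases near its 5′ end, with a matching stretch of the 3′ untranslated region (UTR), and such pairing lowers translation or stability of the message. miR-150 is abundant in mature resting lymphocytes and declines when T cells are activated. Its best-known target is Myb, the transcription factor of lymphoid progenitors, which it represses in developing B cells. A knock-in places a sequence at a chosen place in the genome, and the comparison asked which messages differed between cells with and without that allele during activation.

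Matches to the miR-150 seed were read from the annotated 3′ UTRs of mouse (GENCODE M21, GRCm38). The stretch TTGGGAG is the complement of the miR-150-5p seed, and the same stretch followed by A makes the longer, 8-base form of site. F2r, which fell past the threshold in KI libraries as reported further on, was picked for display after its value was seen. In the set of genes described below, 7 called genes with a 7-base match rose, and their sites are not shown. The sites of Myb, the known target, and of F2r are shown with capitals marking the match.
Myb site 1, chr10:21125303-21125330, minus strand: tggaaaacttatTTGGGAGAattttgca
Myb site 2, chr10:21125202-21125229, minus strand: ctttttctttttTTGGGAGAtttgtgtt
F2r site 1, chr13:95602813-95602840, minus strand: aggtatgccatcTTGGGAGgcagtaact
F2r site 2, chr13:95602345-95602372, minus strand: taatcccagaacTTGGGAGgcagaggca
Both Myb matches were of the 8-base form, and both F2r matches were of the 7-base form. Among 10582 protein-coding genes with an annotated 3′ UTR and a mean log2 CPM (counts scaled to library size) above 1, 17.7% held at least 1 match and 3.18% held 2 or more. A match is a description of the letters and not evidence of binding.

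Total counts ran from 81242275 to 137415965 over the 9 libraries, so a count of 3, taken as the detection floor, equalled 0.0231 to 0.0378 CPM. KI 1 and KI 3 stood apart from all the others in 2 measures of composition. Cytosolic ribosomal protein genes took 11.7% of the counts in KI 1 and 10.3% in KI 3, against 6.44% in KI 4, 7.65% in KI 5, 6.34% to 7.14% in the WT libraries and 4.95% to 9.24% in the other 42 libraries of the series. The difference in mean log2 CPM between short transcripts (under 1000 bases) and long ones (over 4000 bases) was 0.18 in KI 1 and -0.12 in KI 3, against -0.81 in KI 4, -0.51 in KI 5 and -1.44 to -0.43 in the other 42 libraries. Cd4 was present in every library, at 279 to 512 CPM in KI and 242 to 567 CPM in WT, lowest in KI 3 and WT 4. The same 2 libraries had Cd8a at 107.45 and 112.66 CPM, against at most 10.9 CPM in the other 7. Summed markers of CD8 T and NK cells ran from 165 to 352 CPM in KI and from 64.2 to 325 CPM in WT. Eomes was the largest part of that sum, with 81531 counts over the 9 libraries against 29858 for Cd8a. The sum is thus not a measure of Cd8a-bearing cells: KI 4 summed to 196 CPM with Cd8a at 10.9 CPM. Markers of B cells summed to 294 to 2161 CPM in KI and 180 to 1488 CPM in WT. Myeloid and dendritic markers summed to 134.97 to 1024 CPM in KI and 57.5 to 513 CPM in WT. Nearly all of that was Cd74, with 305486 counts over the 9 libraries against 3689 for Cd68, the next highest, and 1106 for Lyz2. The sum was highest in KI 3 and WT 4, as was the B cell sum, so it is not read as a level of myeloid cells. The plasmacytoid marker Siglech was at 0 counts in all 9 libraries. Erythroid markers summed to at most 9.42 CPM. Xist, the X-inactivation RNA, was at 1921 CPM or more in 3 of 4 KI and 2 of 5 WT libraries and near 0 in the others, so the sexes were not balanced. In bulk RNA, fewer cells of a type and less RNA per cell cannot be told apart.

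**Figure D1:**
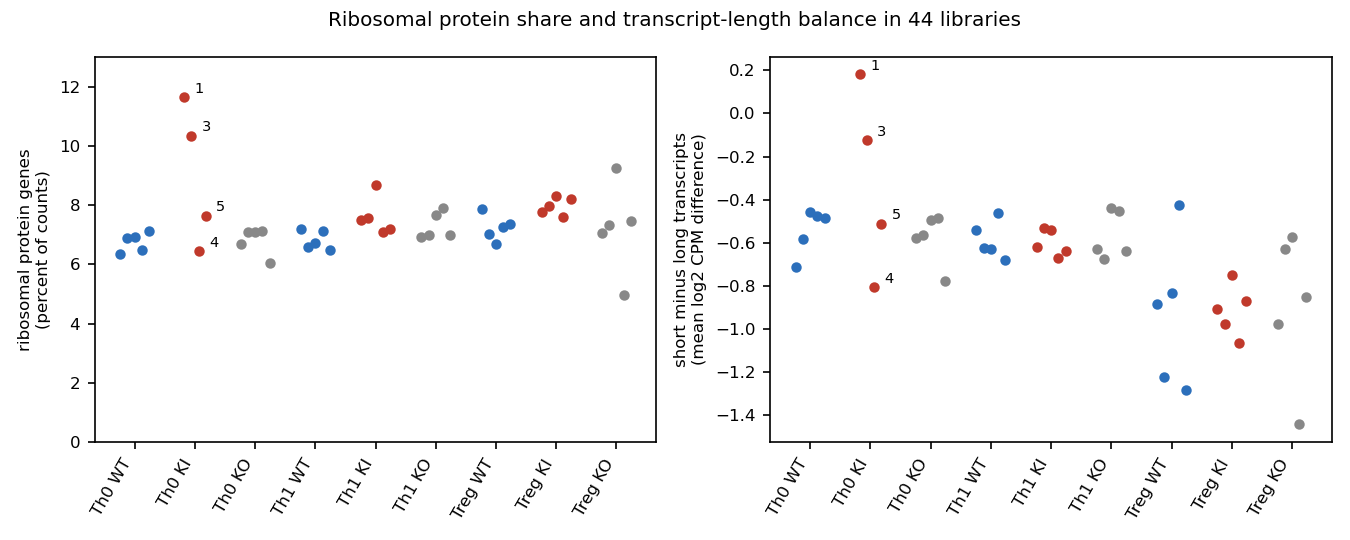
Share of counts in ribosomal protein genes (left, percent) and mean log2 CPM of short minus long transcripts (right) for each of the 44 libraries by group, with the Th0 KI points numbered. KI 1 and KI 3 lie above every other library in both panels, and KI 4 and KI 5 lie among them.

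The targeted locus itself could not be checked by level. Mir150 (chr7:45121757-45121821, plus strand) had 3 counts in the 4 KI libraries together, 3 in the 5 WT libraries and 0 in the 5 Th0 KO libraries. A library of polyadenylated RNA does not capture the mature microRNA, and these counts are at the floor, so no fold is given.

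Of 21873 genes tested with edgeR's quasi-likelihood test, 0.512% passed an adjusted p of 0.05 between Th0 KI and Th0 WT. Those higher in KI, 83 protein-coding genes and 20 others, made up 0.471% of the genes tested, and the 9 lower in KI 0.0411%. At an unadjusted p under 0.05 there were 3558 genes. The calls sat close to the threshold: 92.9% of them had an adjusted p between 0.04 and 0.05, 8 had a lower one, and the lowest was 0.00611. The lowest belonged to Gm13012, a predicted antisense RNA on chromosome 4 singled out after its value was seen, at 9.53 ± 2.87 CPM (SD, n = 4) in KI and 4.21 ± 0.849 CPM (SD, n = 5) in WT, a log2 fold change of 1.18 ± 0.19 (SE). Groups did not overlap for 669 genes (3.06% of all tested) and for 45 of the called genes. Both come from the same contrast, so nothing is read from that share.

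The genes that rose did so mainly in KI 1 and KI 3. KI 1 or KI 3 was the highest KI library for 98.1% of them, those 2 were the highest pair for 84.5%, and KI 4 was the lowest KI library for 81.6%. Their median log2 fold change was 0.74, and 0.36 when only KI 4 and KI 5 stood against the 5 WT libraries, while the median over all genes tested moved from 0.02 to -0.02. Without KI 1 and KI 3, 1 gene of 23238 (0.0043%) passed, the predicted gene Gm15996 at 0 counts in KI 4 and KI 5 and 11 to 26 counts in WT libraries, and it was not among those called with all 4. Leaving out KI 1 or KI 3 alone left 0 calls by edgeR (2546 and 2221 genes at an unadjusted p under 0.05), and leaving out KI 4 or KI 5 gave 1003 and 270. Leaving out WT 1 gave 516, and leaving out WT 2, WT 3, WT 4 or WT 5 gave 2, 2, 1 and 5. With the trend of each library over transcript length and GC content removed, 93 genes (0.425%) passed, 58 higher and 35 lower, of which 47 were also called before, so the share of calls that were higher moved from 92.0% to 62.4%.

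**Figure D2:**
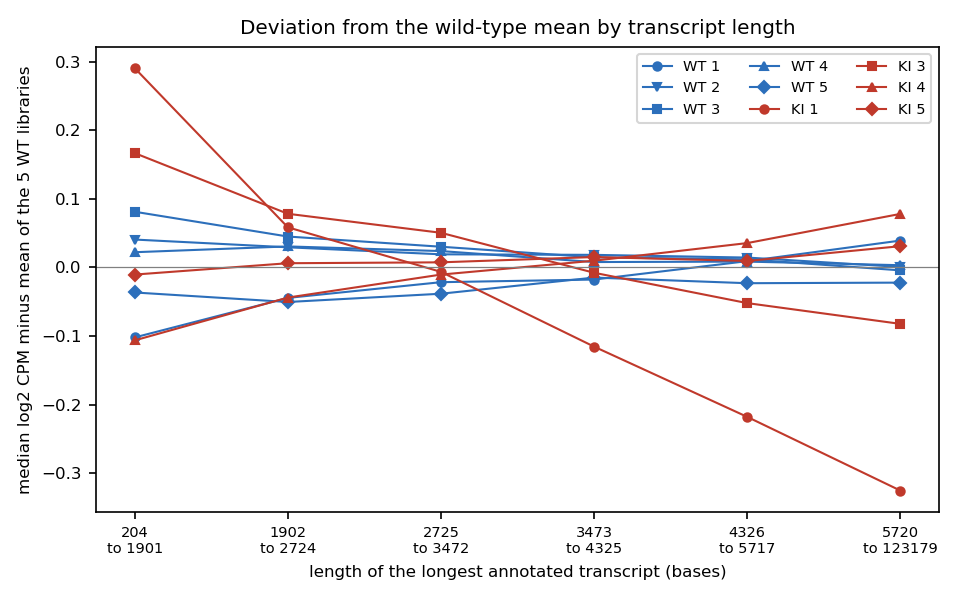
Median log2 CPM of protein-coding genes minus the mean of the 5 WT libraries (y axis) over 6 bins of transcript length in bases (x axis), 1 line per Th0 library. KI 1 falls from 0.29 in the shortest bin to -0.32 in the longest and KI 3 from 0.17 to -0.08, whereas KI 4 goes from -0.11 to 0.08.

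F2r, which encodes the thrombin receptor PAR1, a G protein-coupled receptor cut and switched on by thrombin, fell in all 4 KI libraries. It stood at 14.9, 13.1, 15.1 and 14.6 CPM in KI 1, 3, 4 and 5 and at 26.5, 32.6, 43.1, 40.3 and 24.5 CPM in WT 1 to 5. The 4 KI libraries lay close together and below every WT library. The log2 fold change was -1.21 ± 0.23 (SE; edgeR adjusted p = 0.0334), and -1.17 with only KI 4 and KI 5. KO cells in Th0 held 29.2 ± 3.61 CPM (SD, n = 5), inside the WT range. F2r lies at chr13:95601803-95618487 on the minus strand, and both of its matches to the seed lie in its 3′ UTR of 1930 bases.

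The other genes that fell were few. Xk, a membrane protein that pairs with the Kell blood group antigen on red cells, was at 1.73, 1.79, 3.82 and 1.85 CPM in KI and 5.03, 6.30, 7.19, 8.62 and 5.34 CPM in WT, a log2 fold change of -1.50 ± 0.36 (SE; edgeR adjusted p = 0.0457). Mgat4b, a Golgi enzyme that adds a branch to N-glycans, was at 1.40, 1.51, 2.48 and 1.34 CPM in KI and 2.58, 4.49, 6.12, 5.59 and 2.94 CPM in WT, a log2 fold change of -1.37 ± 0.33 (SE; edgeR adjusted p = 0.0475). In both genes KI 4 was the KI library nearest to WT, and no KI library reached the lowest WT library. Xk lies on the X chromosome, and with the Xist level as a term its log2 fold change was -1.58. Named after their values were seen, 5 more genes that fell were the nuclear import receptor Tnpo1 (-0.46 ± 0.11, SE), Ccdc134 (-0.68 ± 0.16) and 3 transcripts at 0 in all 4 KI libraries, the T cell receptor gamma constant segment Trgc3 and the predicted Gm15367 and Gm44549. Those 3 reached at most 0.278 CPM in any WT library, and since a fitted fold against 0 depends on the prior count, none is given.

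Next in the order of p, and not past the threshold, came 8 genes that were lower in all 4 KI libraries than in any WT library. Myh10, the non-muscle myosin heavy chain IIB, had 17.1, 8.48, 34.4 and 24.6 CPM in KI and 39.4, 49.6, 118.24, 82.3 and 54.3 CPM in WT (log2 fold change -1.70 ± 0.44, SE; edgeR adjusted p = 0.0566). The others were R3hcc1 at -1.55 ± 0.40, Ube2cbp at -1.05 ± 0.28, the mitochondrial anchor of protein kinase A Akap1 at -0.75 ± 0.19, the tubulin pseudogene Tubb4b-ps1 at -0.61 ± 0.16, the transcription factor of respiratory genes Nrf1 at -0.53 ± 0.14, Tpgs2 at -0.46 ± 0.12 and Tex261 at -0.41 ± 0.10 (log2 fold changes with SE). Their edgeR adjusted p ran from 0.0531 to 0.0636. A pseudogene such as Tubb4b-ps1 shares reads with its parent gene, so its value is uncertain.

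Colq had the largest log2 fold change among the named genes that passed the test, rose and did not overlap between groups. It encodes the collagen-like tail that anchors acetylcholinesterase at the neuromuscular junction. Its levels were 9.33, 14.3, 6.77 and 9.87 CPM in KI 1, 3, 4 and 5 and 5.88, 3.52, 3.06, 2.99 and 4.24 CPM in WT 1 to 5. No KI library lay in the WT range, and KI 4 came closest to it, just above WT 1. Colq lies at chr14:31523082-31591343 on the minus strand. The log2 fold change was 1.36 ± 0.25 (SE; edgeR adjusted p = 0.0217), and 1.08 without KI 1 and KI 3. Hint3, a histidine triad nucleotide hydrolase at chr10:30608141-30629632 on the minus strand, stood at 21.7, 17.1, 11.6 and 14.8 CPM in KI and 9.60, 8.26, 9.74, 6.13 and 8.73 CPM in WT. Its log2 fold change was 0.94 ± 0.16 (SE; edgeR adjusted p = 0.00857), and 0.64 without KI 1 and KI 3.

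**Figure D3:**
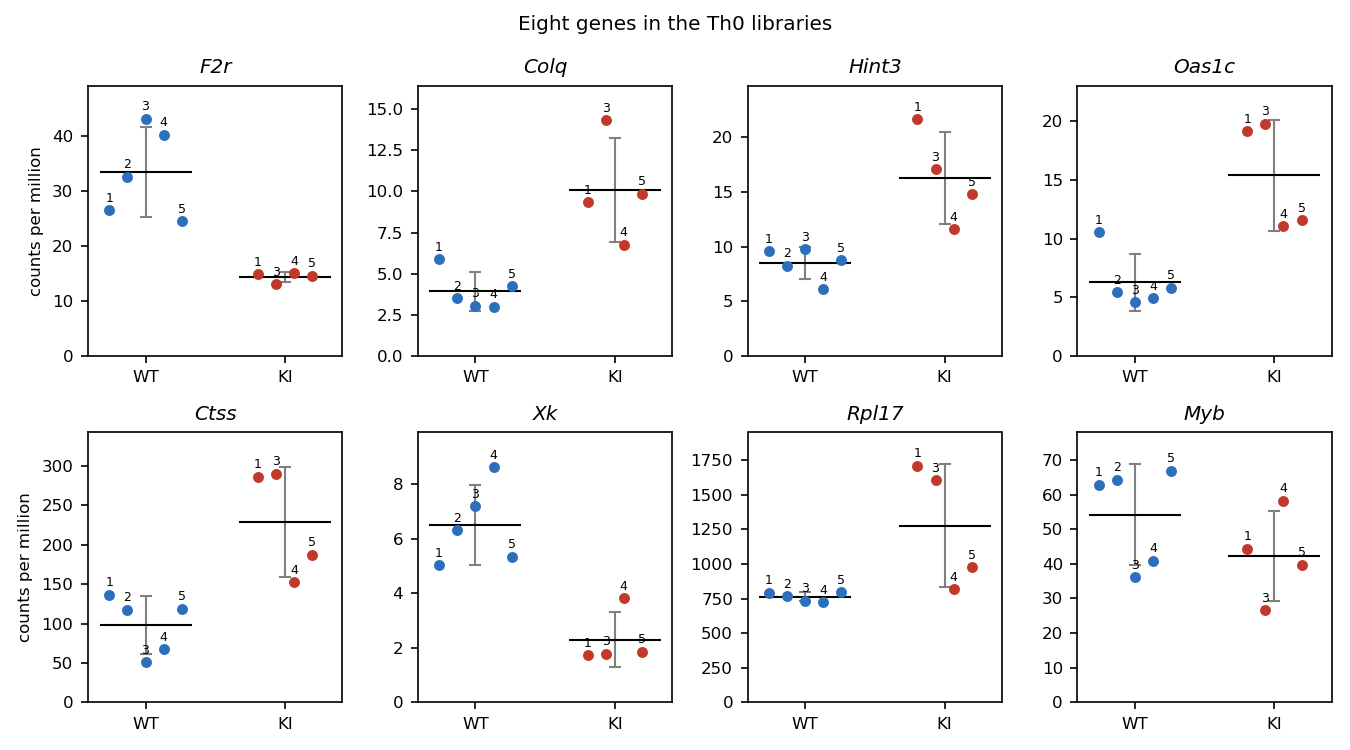
CPM of 8 genes in each Th0 library (points, numbered as in the titles) with the mean (black line) and SD (grey bars) of the 5 WT and 4 KI libraries. F2r and Xk lie lower in every KI library, Colq, Hint3, Oas1c and Ctss lie higher, Rpl17 is raised mainly in KI 1 and KI 3, and the groups overlap for Myb.

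The other genes that rose under the naming rule shared the order KI 1 and KI 3 high, KI 4 and KI 5 nearer WT. Ccdc173, a coiled-coil protein, had a log2 fold change of 1.11 ± 0.27 (0.46 without KI 1 and KI 3). Tsacc, a co-chaperone of a testis kinase, had 0.90 ± 0.20 (0.52 without them). Hspb11, a subunit of the intraflagellar transport complex, had 0.86 ± 0.20 (0.40). Senp7, a protease that trims SUMO chains, had 0.85 ± 0.20 (0.45). The zinc finger proteins Zfp189 and Zfp51 had 0.78 ± 0.15 (0.65) and 0.77 ± 0.17 (0.42), each with SE. Of these, Zfp189 was the most even, at 14.4, 14.2, 10.1 and 13.5 CPM in KI and 6.81 to 8.52 CPM in WT. Over all genes that rose, KI 4 did not exceed the highest WT library for 52.4%.

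Ribosomal protein genes stood higher together in KI 1 and KI 3. The set of 84 cytosolic ribosomal protein genes was drawn up after their levels had been seen, so its direction is a description. Of the 84, 11 passed the test and rose, where 0.471% of all genes tested did. In the set 82 had a positive log2 fold change, and the median was 0.45, against 0.02 and 51.6% positive over all genes tested. Rpl17, a protein of the large subunit, stood at 1711 and 1604 CPM in KI 1 and KI 3, 816 and 978 CPM in KI 4 and KI 5, and 726 to 796 CPM in WT (log2 fold change 0.74 ± 0.16, SE; edgeR adjusted p = 0.0427). Rps7, of the small subunit, stood at 1676 and 1630 CPM in KI 1 and KI 3, 714 and 1013 CPM in KI 4 and KI 5, and 657 to 752 CPM in WT. The median deviation of the 84 genes from the WT mean was 0.92 in KI 1, 0.67 in KI 3, -0.08 in KI 4 and 0.20 in KI 5, and -0.17 to 0.10 in the WT libraries. With only KI 4 and KI 5 the median log2 fold change of the set was 0.06. With the trend over transcript length and GC content removed, the median of the set was 0.29 and 4 of the 84 passed. The part of RNA quality or library preparation in these values was not tested. The pseudogene Rps6-ps4 had a log2 fold change of 0.72 ± 0.14 (SE), 0.26 without KI 1 and KI 3, and shares reads with Rps6, so its value is uncertain, as are those of the other ribosomal pseudogenes that were called.

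Cells switch on interferon-stimulated genes through JAK-STAT signalling after type I or type II interferon. By their median these genes stood above the WT mean in all 4 KI libraries, in WT 1 and slightly in WT 2. No member of the list of 31 passed the edgeR test, 27 had a positive log2 fold change and the list's median was 1.15. The median deviation of the 31 genes from the WT mean was 2.17 in KI 1, 0.64 in KI 3, 1.73 in KI 4 and 0.53 in KI 5, against 1.32 in WT 1, 0.11 in WT 2, -0.51 in WT 3, -0.07 in WT 4 and -0.38 in WT 5. WT 1 thus stood above KI 3 and KI 5, and the groups overlapped. Without KI 1 and KI 3 the median was 0.92 and 28 of 31 were positive, whereas the median of the ribosomal protein genes went from 0.45 to 0.06 in the same step. The 2 members with the smallest p were Isg20, an exonuclease that degrades viral RNA, and Ddx58, the RNA sensor RIG-I. Isg20 had 41.6, 18.6, 21.8 and 6.21 CPM in KI and 13.1, 6.75, 3.56, 7.02 and 4.29 CPM in WT (log2 fold change 1.67 ± 0.45, SE; edgeR adjusted p = 0.0631). Ddx58 had 121.84, 75.3, 92.6 and 50.6 CPM in KI and 83.99, 29.3, 30.8, 29.7 and 23.7 CPM in WT (1.11 ± 0.30, SE; edgeR adjusted p = 0.0653). Of the guanylate-binding proteins Gbp2 had -0.44 ± 0.44 (log2 fold change with SE) and Gbp5 0.19 ± 0.32, whereas Ifit3 had 2.20 ± 0.65 and Isg15 2.00 ± 0.80.

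A few of the genes that rose, picked out here after the calls were seen and part of no list, are known to respond to interferon. Oas1c, of the oligoadenylate synthetase family, stood at 19.1, 19.8, 11.1 and 11.6 CPM in KI and 10.6, 5.41, 4.60, 4.93 and 5.80 CPM in WT (log2 fold change 1.30 ± 0.28, SE; edgeR adjusted p = 0.0427). Ctss, the lysosomal protease cathepsin S that trims the invariant chain of MHC class II, stood at 286, 290, 153 and 187 CPM in KI and 136.59, 117.43, 50.9, 67.8 and 118.93 CPM in WT (1.22 ± 0.28, SE; edgeR adjusted p = 0.0457). In both genes WT 1 was the highest WT library and the groups did not overlap. Both were highest in KI 1 and KI 3 and lowest among KI libraries in KI 4, the order of most genes that rose, whereas the interferon list stood higher in KI 4 than in KI 3. Without KI 1 and KI 3 their log2 fold changes were 0.85 and 0.79. Named after their values were seen, Trim34a (1.27 ± 0.30), Trim12c (0.96 ± 0.21) and Ifi27 (1.79 ± 0.39, all log2 fold changes with SE) also rose, and for each of them WT 1 lay above at least 1 KI library. B cell markers were highest in KI 3, at 2161 CPM, and in WT 4, at 1488 CPM, and KI 3 was also the highest library for Oas1c and Ctss. The part of B cells in these values was not tested.

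The promoters of these genes were searched for 1 motif. The motif, TTTC followed by any 2 bases and a second TTTC, is the core of interferon-stimulated response elements. It was searched on both strands of the window from 250 bases before to 50 after each start site (RefSeq, GRCm38.p6). Overlapping matches counted once per promoter, and the motif was found in 3.44% of 32851 promoters. The other shares are by gene, a gene counting when any of its promoters held the motif. Of the genes tested 12845 had a promoter, and 3.87% of those held it. Of the 31 interferon-stimulated genes 24 had a promoter in the table, and 14 of those (58.3%) held the motif. Of the genes that rose 77 had a promoter and 11 (14.3%) held it, and of the 9 that fell 4 had one and 0 held it. Matches of genes that rose, and of Ddx58 from the list, are shown with the motif in capitals.
Oas1c, chr5:120812603-120812632, minus strand: ggactttcagTTTCCATTTCccgggaaggg
Trim34a, chr7:104244457-104244486, plus strand: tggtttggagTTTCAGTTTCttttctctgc
Trim12c, chr7:104353359-104353388, minus strand: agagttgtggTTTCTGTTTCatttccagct
Ctss, chr3:95526755-95526784, plus strand, motif on the opposite strand: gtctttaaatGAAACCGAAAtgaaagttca
Ddx58, chr4:40239804-40239833, minus strand: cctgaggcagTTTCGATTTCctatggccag
The 11 included the ribosomal protein genes Rpl5, Rps7 and Rps23, so the motif is not particular to interferon-responsive genes, and a match shows the letters only.

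Of the genes near Mir150, the predicted Gm45552 differed between KI and WT by -0.20 ± 0.44, Rcn3 by 1.05 ± 1.11 and Fcgrt by 0.53 ± 1.59 (log2 fold changes with SE), none past the threshold. Among 5 loci often used to host transgenes none passed. The smallest p there belonged to Thumpd3 (0.25 ± 0.12) and its antisense partner Gt(ROSA)26Sor (-0.36 ± 0.19), log2 fold changes with SE. Whether the counting used strand was not given in the sources used here, so reads of overlapping antisense genes may not be separable.

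Myb was 44.4, 26.6, 58.2 and 39.7 CPM in KI 1, 3, 4 and 5 and 62.8, 64.3, 36.2, 40.9 and 66.9 CPM in WT 1 to 5. The groups overlapped, with KI 4 above WT 3 and WT 4. Its log2 fold change was -0.36 ± 0.25 (SE; edgeR adjusted p = 0.502), -0.36 in Th1 and -0.12 in Treg culture. Of 20 genes reported elsewhere as miR-150 targets none passed, 11 had a positive and 9 a negative log2 fold change, and the median was 0.05. Among them Gab1, an adaptor of growth factor receptors, was at 0 in all 4 KI libraries and at most 0.237 CPM in WT, with 0 also in WT 2 and WT 5.

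Messages with a seed match had medians near those without one. The median log2 fold change was -0.05 for 559 genes with an 8-base match, -0.03 for 1313 genes with a 7-base match only and 0.00 for 8710 genes with none. Genes with matches have longer UTRs, and in the longest of 4 equal groups by UTR length the medians were -0.07 (314 genes), -0.05 (645 genes) and -0.05 (1687 genes). Without KI 1 and KI 3 the 3 medians over all UTR lengths were -0.00, 0.01 and -0.01. Of 84 called genes in this set 8 (9.52%) held a 7-base match only, against 12.4% of all its genes. Of the 8, 7 were higher in KI and F2r was lower, and 0 called genes held an 8-base match. Components of the microRNA pathway were described by a list of 15, of which 6 were positive and 9 negative (median -0.16) and none passed. Tnrc6a, the GW182 protein that recruits deadenylases to Argonaute, had 163, 163, 219 and 207 CPM in KI and 227 to 247 CPM in WT, without overlap (-0.32 ± 0.09, SE; edgeR adjusted p = 0.0681). Tarbp2, the partner of Dicer, had -0.51 ± 0.16 (SE; edgeR adjusted p = 0.11).

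No gene of the 33 lists passed the edgeR test, so the T cell programmes are given by counts and medians. Lineage-defining T cell genes were close to even, with 9 of 15 positive and a median of 0.04, and Trac, the constant region of the alpha chain, was 316 ± 31.7 CPM (SD, n = 4) in KI and 267 ± 23.9 CPM (SD, n = 5) in WT. Activation genes had 7 of 20 positive (median -0.07). Among them the early activation marker Cd69 had 0.36 ± 0.28 and the transcription factor Egr2 -0.67 ± 0.28. Inhibitory receptors had 4 of 11 positive (median -0.08), with Ctla4 at 0.46 ± 0.25 and Cd244a at 1.12 ± 0.54. Cd244a was at 12.2 CPM in KI 3 and 2.04 to 4.38 CPM in the other KI libraries, and its log2 fold change was 0.32 without KI 3 and -0.01 without KI 1 and KI 3. Naive and quiescence genes had 12 of 20 positive (median 0.12). Ccr7, the receptor that guides naive cells to lymph nodes, had 0.41 ± 0.23 (log2 fold changes with SE throughout).

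Among helper programmes, the Th2 list stood highest in WT 3 and WT 4. In the Th2 and Th17 lists KI 4 and KI 5 stood below every WT library, and KI 1 and KI 3 did not. The Th2 list had 12 of 14 negative with a median of -0.93 (-1.75 without KI 1 and KI 3), and its median deviation from the WT mean was 1.72 in WT 3 and 1.11 in WT 4 against -0.66, -0.85 and -0.90 in WT 1, 2 and 5 and -1.26 to 0.08 in KI. Il13, a Th2 cytokine, stood at 90.1 and 71.4 CPM in WT 3 and WT 4 and at 0.734 to 3.90 CPM in the other 7 libraries. Gata3, the master transcription factor of Th2 cells, stood at 112.87 and 69.3 CPM in WT 3 and WT 4 and at 12.5 to 32.1 CPM in the other 7. The granulocyte-macrophage growth factor Csf2 shared that order, at 148 and 228 CPM against 6.03 to 32.6 CPM. The Th17 list had 10 of 13 negative (median -0.55, and -1.17 without KI 1 and KI 3). Among them Ahr, the aryl hydrocarbon receptor, was at 1.64 to 4.49 CPM in KI and 3.74 to 12.4 CPM in WT (-1.23 ± 0.38, SE; edgeR adjusted p = 0.103). The Th1 list had 12 of 22 positive (median 0.05), with the chemokine Ccl5 at 0.99 ± 0.55 and the chemokine receptor Cxcr3 at -0.87 ± 0.38. The Treg list had 6 of 17 positive (median -0.24), the actin-capping protein Capg at 0.48 ± 0.19 among them, and the follicular helper list 4 of 9 (median -0.12), with Cxcr5, which B cells also express, at 173 CPM in KI 3, 53.3 CPM in WT 4 and at most 40.5 CPM elsewhere, and the costimulator Icos at -0.30 ± 0.25. Activation cytokines had 12 of 15 negative (median -0.28), and Il9 was at 1.19 and 1.05 CPM in WT 3 and WT 4 and at most 0.193 CPM in the others.

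Antigen presentation and proliferation leaned in opposite directions. All 15 genes of MHC class I presentation had a positive log2 fold change (median 0.33, and 0.15 without KI 1 and KI 3). The list's median deviation from the WT mean was 0.39, 0.38, 0.27 and 0.15 in KI 1, 3, 4 and 5 and -0.17 to 0.22 in WT. WT 1 thus stood above KI 5, and the groups overlapped. B2m, the light chain of every class I molecule, stood at 2050, 1712, 1147 and 1137 CPM in KI and 802 to 1011 CPM in WT, without overlap (0.69 ± 0.18, SE; edgeR adjusted p = 0.0591). Psme2, a subunit of the proteasome activator PA28, stood at 336 to 532 CPM in KI and 184 to 326 CPM in WT (0.70 ± 0.22, SE; edgeR adjusted p = 0.104). Of 26 cell cycle genes 20 were negative (median -0.29, and -0.18 without KI 1 and KI 3), and 3 of the 26 had no overlap, against 3.06% of all genes tested. By the list's median deviation the groups overlapped, at -0.60 to -0.07 in KI and -0.14 to 0.13 in WT, with WT 1 below KI 4. Rrm2, the ribonucleotide reductase subunit made in S phase, stood at 229, 242, 387 and 320 CPM in KI and 367 to 476 CPM in WT (-0.54 ± 0.15, SE; edgeR adjusted p = 0.0701). Cdc20, the activator of the anaphase-promoting complex, stood at 88.1, 72.4, 118.1 and 112.74 CPM in KI and 127.19 to 167 CPM in WT (-0.62 ± 0.19, SE; edgeR adjusted p = 0.0998). For both, KI 1 and KI 3 were the lowest libraries.

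Metabolic lists had medians from -0.18 to 0.00, against 0.02 and 51.6% positive over all genes tested. Of 26 rows for glycolysis and hypoxia 19 were negative (median -0.18), with the glycolytic enzymes Pgam1 at -0.58 ± 0.23 and Pfkl at -0.45 ± 0.29. Of 14 genes for MYC and nutrient uptake 12 were negative (median -0.15, and 0.02 without KI 1 and KI 3), with the amino acid transporter Slc7a6 at -0.21 ± 0.13 and Mycn at or under 0.147 CPM in KI and at most 1.33 CPM in WT. Cholesterol synthesis had 14 of 21 negative (median -0.05), its enzyme Fdft1 at 0.41 ± 0.24. Oxidative phosphorylation had 10 of 20 negative (median 0.00; Sdha -0.12 ± 0.07, Cyc1 -0.30 ± 0.16), and mitochondrial transcripts 7 of 12 (median -0.11; mt-Co1 0.20 ± 0.17, mt-Cytb -0.26 ± 0.27). Survival and death genes had 14 of 18 positive (median 0.26), with the death receptor Fas at 76.04 to 137.07 CPM in KI and 29.9 to 74.6 CPM in WT, without overlap (0.76 ± 0.29), and Casp8 at 0.24 ± 0.10. TGF-beta response genes had 9 of 15 negative (median -0.06; Pmepa1 -0.81 ± 0.26, Tgfbr3 -0.52 ± 0.22). STAT and SOCS genes had 8 of 15 positive (median 0.02; Stat2 0.80 ± 0.32, Socs6 -0.22 ± 0.12), integrins and adhesion molecules 9 of 17 (median 0.10; Itgal -0.45 ± 0.17, Selplg 0.59 ± 0.24), and stress genes 8 of 14 (median 0.07; Jun 1.07 ± 0.30, Ddit3 0.82 ± 0.25). All values with an error in this paragraph are log2 fold changes with SE, none past the threshold.

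Markers of other cell types stood high in a few libraries, for most lists KI 3 and WT 4. The B cell list had 11 of 11 positive (median 0.88, and -0.17 without KI 1 and KI 3), with Cd79b, a chain of the B cell receptor, at 143.09 CPM in KI 3, 49.9 CPM in WT 4 and at most 23.4 CPM elsewhere, and Blnk in the same order. The list for CD8 T and NK cells had 7 of 9 positive (median 0.49, and -1.50 without KI 1 and KI 3). Its median deviation from the WT mean was 2.84 in KI 3 and 2.24 in WT 4. The NK receptors Klrb1c and Ncr1 were at 7.93 and 6.66 CPM in KI 3 and at most 1.35 CPM in the others. Granzymes and cytotoxic genes had 11 of 13 positive (median 0.23, and -1.65 without KI 1 and KI 3). Their median deviation was 3.07 in KI 3, 2.74 in WT 4, 1.53 in WT 3 and at most 0.38 in the others. Klrg1 at 1.58 CPM and Gzmk at 0.238 CPM were highest in KI 3. Chemokine receptors had 9 of 15 positive (median 0.41, and -0.38 without KI 1 and KI 3). Myeloid markers had 7 of 12 positive (median 0.22), Cd68 at 8.32 CPM in KI 3 and 2.33 to 4.41 CPM in the others, and Csf1r at 1.31 CPM in WT 4. Erythroid markers had 5 of 7 positive (median 0.92), with the globins Hba-a1 and Hba-a2 at most 0.584 CPM in any library. Of 5 sex-linked genes 4 were negative, and the Y-linked Ddx3y was at 113.23 CPM in KI 1 and 0 in the other KI libraries. The part of these cells in the differences between KI and WT was not tested.

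**Figure D4:**
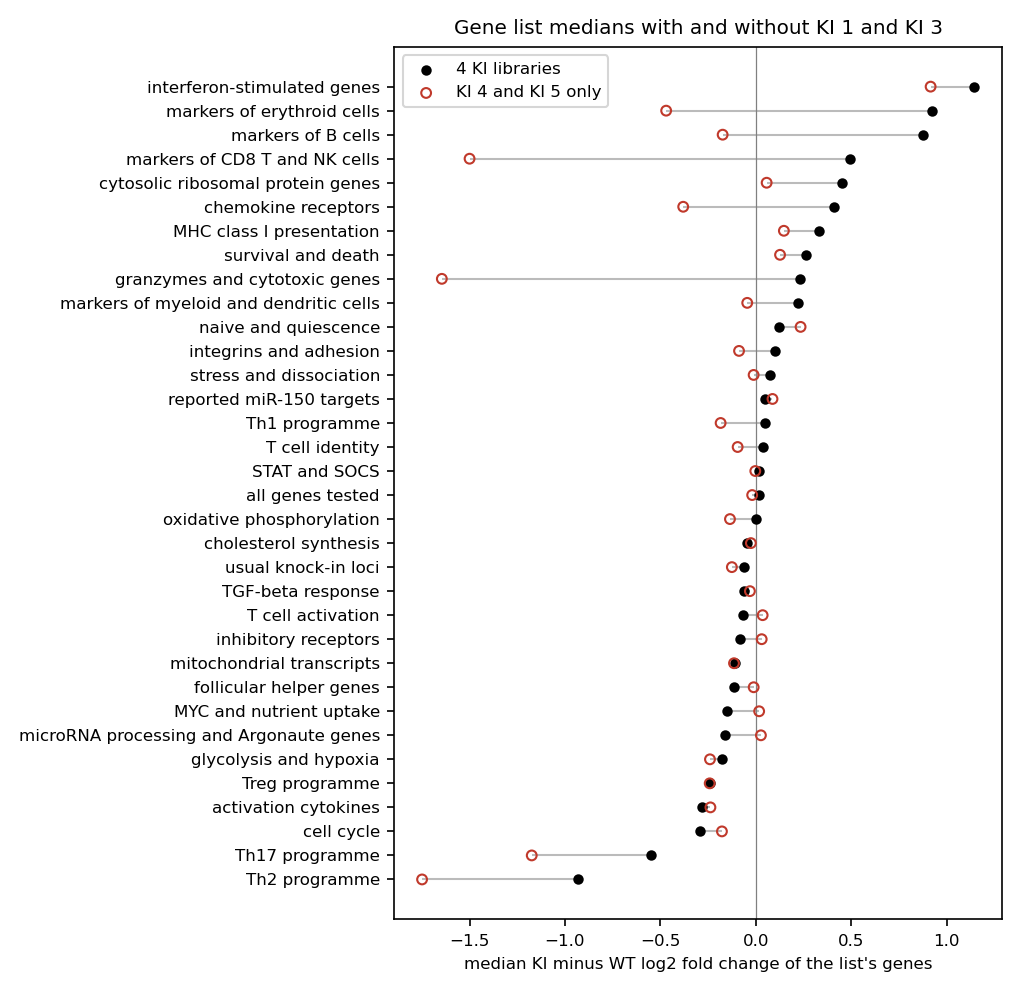
Median KI minus WT log2 fold change (x axis) of the genes in each list (y axis, sex-linked genes left out), with all 4 KI libraries (black) and with KI 4 and KI 5 only (open red). The interferon-stimulated list moves from 1.15 to 0.92 and the ribosomal protein set from 0.45 to 0.06, while the lists for CD8 and NK, B cell and erythroid markers are among those that change sign.

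The same KI and WT genotypes were measured in 2 other cultures, with libraries of their own. These are not independent of the Th0 libraries, since same-numbered libraries of a genotype deviated together across cultures (correlations of 0.31 to 0.76). In Th1 culture 6 genes (0.0274%) passed between KI and WT by edgeR, with 3301 at an unadjusted p under 0.05, and in Treg culture 0 (0%) passed, with 1758. F2r and Colq were called in both Th0 and Th1. F2r in Th1 stood at 9.20, 11.4, 10.4, 8.03 and 7.46 CPM in KI and 15.2, 23.8, 18.6, 37.9 and 20.8 CPM in WT, again without overlap (-1.32 ± 0.22, SE; edgeR adjusted p = 0.00806). In Treg culture it stood at 30.8 ± 5.33 CPM (SD, n = 5) in KI and 45.7 ± 10.4 CPM (SD, n = 5) in WT (-0.57 ± 0.21, SE; edgeR adjusted p = 0.587). Colq had 1.25 ± 0.24 in Th1 (SE; edgeR adjusted p = 0.0289) and 0.75 ± 0.24 in Treg culture (SE; edgeR adjusted p = 0.566). The other 4 genes called in Th1 had smaller log2 fold changes in Th0 and did not pass there, named after their values were seen: the adhesion molecule Nectin3 (-2.86 and -1.23), Gprin3 (-1.31 and -0.68), Them4 (-1.27 and -0.55) and Acap2 (0.63 and 0.25).

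The knock-in effect was not shown to differ between cultures. By edgeR 0 genes (0%) passed for the Th0 effect minus the Th1 effect, with 712 at an unadjusted p under 0.05, and 0 (0%) for Th0 minus Treg, with 1360. DESeq2 called 1 and 4. The 1 gene was Fcrls, and the 4 were Fcrls, Gm20431, Igkv12-89 and 2210039B01Rik, each at 0 counts in 2 or more of the 9 Th0 libraries. Of the genes called in Th0, all but 1 had the same sign in Th1 and all but 15 in Treg culture, where 69.7% and 60.7% of all genes tested did. Their median absolute log2 fold change was 0.76 in Th0, 0.37 in Th1 and 0.19 in Treg culture. Having been chosen for their size in Th0, they would be larger there than elsewhere by that choice. Hint3, for example, had 0.94 ± 0.16 in Th0, 0.37 ± 0.15 in Th1 and 0.24 ± 0.15 in Treg culture. Interferon-stimulated genes had a median of 0.54 in Th1 and 0.44 in Treg culture, and ribosomal protein genes 0.14 and 0.12. In the knockout, against the same 5 WT libraries, 0 genes (0%) passed by edgeR in Th0, with 1048 at an unadjusted p under 0.05. Because the KO and KI comparisons share those WT libraries, only their own values are given: the median of the interferon-stimulated genes was -0.08 for KO and 1.15 for KI.

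**Figure D5:**
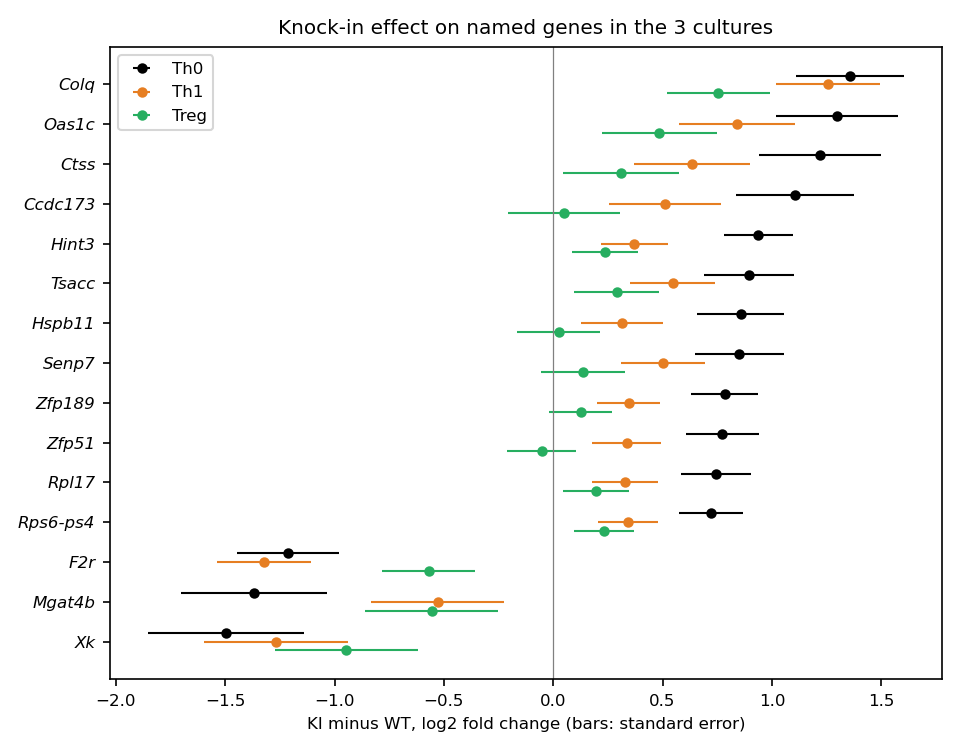
KI minus WT log2 fold change (x axis, bars are SE) of named genes that passed in Th0 (y axis), in Th0 (black), Th1 (orange) and Treg (green) culture. F2r and Colq are as large in Th1 as in Th0, at -1.32 and 1.25, while Hint3 goes from 0.94 to 0.37.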

How the data were processed

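RNA was made into stranded polyadenylated libraries (TruSeq Stranded mRNA) and sequenced as paired reads, per the labels' protocols. Per the file headers, the authors deposited a table of whole-number STAR counts for 55416 genes, with 2 lane columns per library. The submitters' processing notes name build GRCh38, although the gene IDs are mouse. The aligner's settings, the annotation release and the strand setting were not given in the sources used here. A second, normalised table was not used here.

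The 2 lane columns were summed per library, 1492 rows named no gene by symbol and stayed under their IDs, and no column belonged to another series. Genes were filtered with filterByExpr and scaled by TMM. edgeR (4.0.16, R 4.3.3) was fitted over all 44 libraries with 9 group means, so that groups share 1 estimate of spread. The quasi-likelihood test was adjusted by Benjamini-Hochberg over the 21873 genes tested, at 0.05. Fold changes are log2 and SEs were taken from the F statistic. CPM values are counts scaled to the TMM-corrected library size. Coordinates, transcript lengths and UTRs came from GENCODE M21 (GRCm38) by gene ID, for 21668 of those genes. DESeq2 1.42.0 and limma 3.58.1 were alternatives. The fits were also run on simulated counts drawn independently for each library. The outcome is not given here and lends no support to the calls. The precision is that of 81242275 to 137415965 counts a library, and the floor of 3 counts covers counting error only.

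The members and gene lists were chosen with earlier results of these data known. Genes named were those called that had no predicted name, whose mean log2 CPM was 1 or more and whose groups did not overlap, up to 12 in each direction by size, filled in order of p where fewer passed. Also named were Mir150, its neighbours, Myb and the 2 members of smallest p in each of the 33 lists, some of which are not reported here. Alternatives of normalisation, filter, model, lane and left-out libraries are in the closing section. Removing length and GC trends, leaving out KI 1 and KI 3 and adding the Xist level were chosen after seeing the data. Libraries with the same number in different cultures deviated together within a genotype (correlations of 0.31 to 0.76), so numbers pair the cultures. Of 16 pairs of libraries within a group none agreed within sampling noise.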

Additional observations from a re-analysis of the deposited data

Results flagged for a closer look

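In 6 of 48 checks of the highest and lowest library of a group over 24 measures, 1 library lay far from the others of its group. The measures overlap, Cd8a being also part of the summed CD8 T and NK markers. The genes among them were picked by this same contrast. No rate by chance is therefore set beside the count. Cd8a stood at 107.45 CPM in KI 3 and 112.66 CPM in WT 4, each far above the other libraries of its genotype. The summed markers of CD8 T and NK cells stood at 351.91 CPM in KI 3, apart from the other KI libraries. Oas1c stood at 10.555 CPM in WT 1, nearer to KI 4 at 11.1 CPM than to the other WT libraries. Mgat4b at 2.4784 CPM and Xk at 3.8205 CPM stood highest among the KI libraries in KI 4, and both remained below the lowest WT library. The part of these libraries in the differences between KI and WT was not tested beyond the values without them.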

How the results depend on the processing

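The count of genes called between Th0 KI and WT moved with nearly every choice. Against 0.512% of the genes tested in the fit reported, edgeR gave 0 with only the 9 libraries (2554 at an unadjusted p under 0.05), 0 with only the 14 Th0 libraries (3221), 22 with DESeq2's size factors, 4 without the filter (Hint3, F2r, Colq and Gm13012), 248 at a mean log2 CPM of at least 1, 54 with the Cd8a level as a term and 187 with the Xist level. It gave 1 (F2r) when WT 4, KO 2 and KI 3 of every culture were dropped and 1 without KI 1 and KI 3. DESeq2 gave 685, with 95.5% of the genes called in that fit, and limma voom 344, with 90.2% of them. Leaving out 1 library at a time gave 0 to 1003. The cause was not tested. For the difference between cultures the count was 0 under all alternatives but DESeq2, with 1 for Th1 and 4 for Treg. The naming rule took called genes only where the groups did not overlap, so leaving out libraries could hardly change their sign. All 16 of them had the same sign in all 23 alternatives, and nothing is read from that. Of 76 named genes that were not called, most of them named without that condition, 64 did.

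Whether numbers pair KI with WT libraries cannot be settled from 4 values. Same-numbered libraries correlated at 0.21, 0.25, -0.21 and 0.31, and 2 of 4 correlated best with their own number. With the number as a block edgeR called 0 genes (1783 at an unadjusted p under 0.05).

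The sign changed in 24 values of 11 genes that were not called. Without KI 1 and KI 3 the log2 fold changes were -0.26 for Gzmk, -1.50 for Ncr1, -0.71 for Klrb1c, -0.011 for Cxcr5, -0.90 for Cd79b, -0.17 for Blnk, -0.01 for Cd244a, -2.18 for Rcn3, -5.66 for Fcgrt, -0.14 for Trbc1 and -0.013 for mt-Co1. Without KI 3 they were -0.29 for Ncr1, -0.42 for Klrb1c, -0.33 for Cd79b, -0.16 for Blnk, -1.59 for Rcn3 and -2.04 for Fcgrt, and without KI 1 -0.007 for mt-Co1. With WT 4, KO 2 and KI 3 dropped they were -0.025 for Klrb1c, -1.04 for Rcn3 and -0.41 for Fcgrt. With the Cd8a level as a term they were -0.36 for Rcn3 and -0.22 for Fcgrt, and limma voom gave -0.073 for Rcn3. Without WT 4 they reached 2.34 for Ncr1, 2.18 for Klrb1c, 2.25 for Cd79b, 2.12 for Blnk, 1.58 for Rcn3 and 2.16 for Fcgrt, their highest with 1 library left out. For mt-Co1 the highest was 0.31, without KI 5. Depth limits genes near the floor, such as Fcgrt, Gab1 and Mir150.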
